A study of Mus musculus with 8 samples.

Results

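The 8 genes described here encode the kainate receptor subunits Grik1, Grik2, Grik3, Grik4 and Grik5, the delta receptor subunit Grid1 and the auxiliary subunits Neto1 and Neto2. They were chosen by gene symbol, each has 1 entry among the 14353 genes of the table, and all 8 were among the 14249 genes tested. Their levels were measured by RNA sequencing in tissue of the mouse ventral pallidum (VP), a basal forebrain nucleus in which most neurons are GABAergic or cholinergic and a smaller population releases glutamate. Every library came from untreated adult mice that were homozygous for vGluT2-Cre and heterozygous for the Rpl22 allele (RiboTag), in which Cre adds an HA tag to a ribosomal protein. TRAP is the mRNA pulled down with the tagged ribosomes, and INPUT, in which the labels place all neurons and glia, was set aside from the same homogenate before the pull-down, although the methods of the study also speak of an unbound fraction. There were 4 pools of mice of both sexes, each giving 1 TRAP and 1 INPUT library (n = 4 per fraction). In pool VP1.6 the mice were 9 to 12 weeks old, and in each of VP2.2, VP2.6 and VP2.11 they were 10 to 16 weeks old. The pools held between 7 and 11 mice each, 38 in all, so a value is an average over the mice of a pool. Cre follows Slc17a6, the gene of the vesicular glutamate transporter vGluT2. The tag therefore marks any cell of the tissue punched from the slab that uses or once used this gene, and it does not separate kinds of VP glutamatergic neuron.

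Kainate receptors are glutamate-gated cation channels of 4 subunits, found both on dendrites and on presynaptic terminals, where they adjust transmitter release. GluK1, GluK2 and GluK3, the products of Grik1, Grik2 and Grik3, can form channels alone, whereas the high-affinity subunits GluK4 and GluK5, from Grik4 and Grik5, need one of the other subunits to reach the membrane as working receptors. NETO1 and NETO2 are single-pass membrane proteins that bind kainate receptors and slow their gating. GluD1, from Grid1, resembles these receptors in sequence but acts chiefly as a synaptic organiser that links postsynaptic membranes to presynaptic neurexins through cerebellins.

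The kainate receptor genes are paralogs, so it matters whether a sequenced read can tell them apart. None of the 75-base windows in the transcripts of any of these genes occurred in the transcripts of another, at the 75 cycles of sequencing the study describes. The longest identical coding stretch was the 38 bases shared by Grik3 and Grik5, and Grik1 and Grik2 shared 35, as did Grik4 and Grik5. The stretches are shown with 15 bases on either side because they are where reads of these genes are hardest to separate. They are written 5′ to 3′ along each gene. Capitals in the first pair mark the bases that Grik3 and Grik5 share, in the Grik4 line those that Grik4 shares with Grik3 (the stretch it shares with Grik5 begins a few bases earlier and ends with them), and in the last pair those that Grik1 and Grik2 share. The site of Grik3, Grik4 and Grik5 encodes part of the third membrane segment, the most conserved stretch of ionotropic glutamate receptors.
Grik3, coding exon sequence in exon 13 of 16, chr4:125694018-125694085, plus strand: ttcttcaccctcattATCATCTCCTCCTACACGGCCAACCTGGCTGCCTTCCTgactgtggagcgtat
Grik5, coding exon sequence in exon 16 of 20, chr7:25015902-25015969, minus strand: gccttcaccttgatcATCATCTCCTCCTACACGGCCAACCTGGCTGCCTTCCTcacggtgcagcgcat
Grik4, coding exon sequence in exon 17 of 21, chr9:42543861-42543919, minus strand: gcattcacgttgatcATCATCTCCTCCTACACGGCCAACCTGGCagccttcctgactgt
Grik1, coding exon sequence in exon 13 of 18, chr16:87940573-87940637, minus strand: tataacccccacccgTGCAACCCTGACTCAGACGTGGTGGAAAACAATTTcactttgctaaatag
Grik2, coding exon sequence in exon 13 of 17, chr10:49244360-49244424, minus strand: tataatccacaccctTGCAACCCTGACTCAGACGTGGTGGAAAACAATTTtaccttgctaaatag
The runs were all shorter than a read, and the authors counted only reads that aligned uniquely. Windows shared with any other gene made up 1.73% of those of Neto1, 0.31% of those of Grid1 and 0.07% of those of Grik2, and none for Grik1, Grik3, Grik4, Grik5 and Neto2.

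The labelled population was visible in the pull-down. Slc17a6 stood between 130 and 162 CPM in the TRAP libraries and between 14.4 and 39.4 in INPUT. CPM are counts of a gene scaled to the depth of its library, used here as deposited. The log2 difference of Slc17a6 was 2.55 (limma, adjusted p = 8.83e-05, or 7.3e-06 with the pool as a block). The pan-neuronal markers summed to between 19000 and 27500 CPM in TRAP and between 5480 and 10600 in INPUT, and 5 of 5 were higher on fraction alone and 4 with the block. The summed markers of astrocytes, oligodendrocytes, microglia and striatal medium spiny neurons were lower in TRAP in all 4 pools. With the block 17 of their 20 genes passed the test as lower. The oligodendrocyte gene Mag went the other way (0.61, limma adjusted p = 0.0355, or 0.0719 with the block). The astrocyte gene Aldh1l1 (-0.27) and the microglial gene Csf1r (-0.49) did not pass with the block. Among the defining markers the lowest level in TRAP was 0.0281 CPM, of the microglial gene Tmem119. Log2 values cannot hold a level of 0, so this value does not show that the gene was detected. The GABAergic markers summed to between 918 and 1570 CPM in TRAP and between 584 and 1390 in INPUT, but Slc32a1, the vesicular GABA transporter gene among them, was lower in TRAP in all 4 pools (log2 difference -1.26, limma adjusted p = 0.00267, or 0.00548 with the block). The cholinergic markers summed to between 87.8 and 137 CPM in TRAP and between 39.4 and 84.1 in INPUT. Slc18a3 was lower in TRAP (-1.75, limma adjusted p = 0.0086, or 0.0131 with the block). Chat (0.70, 0.0344 and 0.0655) and Slc5a7 (0.81, 0.0742 and 0.0827) went the other way, and of these only Chat passed, on fraction alone. For oligodendrocyte precursors the sums were 26.5 to 47.4 CPM in TRAP and 23.2 to 38.1 in INPUT. Their markers split, with Cspg4 higher in TRAP (1.98, limma adjusted p = 0.00139, or 0.000881 with the block) and Gpr17 lower (-1.01, 0.00192 and 0.0143). Pdgfra did not pass (-0.28, 0.566 and 0.63). The 2 endothelial genes measured summed to 5.60 to 28.9 CPM in TRAP and 1.46 to 5.82 in INPUT. Flt1 was higher in TRAP (2.37, limma adjusted p = 0.00804, or 0.00466 with the block), and Pecam1 did not pass (0.59, 0.42 and 0.488). Levels here are deposited CPM, or their log2, which set a gene against the rest of its library. They are not exact shares, since deposited levels were shifted from those computed from reads where whole reads could be recovered. In bulk tissue fewer cells of a type and less RNA per cell cannot be told apart.

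The genes lie apart in the genome (GRCm38 coordinates, GENCODE annotation). Grik1 spans chr16:87895900-88290265 on the minus strand, Grik2 chr10:49094833-49788766 on the minus strand and Grik3 chr4:125490700-125714173 on the plus strand. Grik4 spans chr9:42518135-42944493 and Grik5 chr7:25009849-25072346, both on the minus strand. Grid1 spans chr14:34820108-35583379 on the plus strand, Neto1 chr18:86394952-86506718 on the plus strand and Neto2 chr8:85636588-85700924 on the minus strand. Their annotated exons cover between 5.17 kb (Grik5) and 13.25 kb (Grik2), above the median of 4.27 kb over all genes tested.

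Of the 8 genes, Grik5 and Neto1 were lower in TRAP than in INPUT and none was higher. Grik5 was 2.10-fold lower and Neto1 1.95-fold lower, and both passed the test with and without the pool as a block. Over all genes tested, 24.8% were lower and 23.2% higher by limma on fraction alone (adjusted p under 0.05), and 16.8% and 15.4% with the block. The 2 genes lower of 8 were therefore near the share of all genes. For the other 6 genes the 95% intervals with the block included 0, from the narrowest, -0.42 to 0.71 in log2 units for Grik3, to the widest, -0.84 to 1.41 for Grik4, so differences within such ranges were not resolved.

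**Figure D1:**
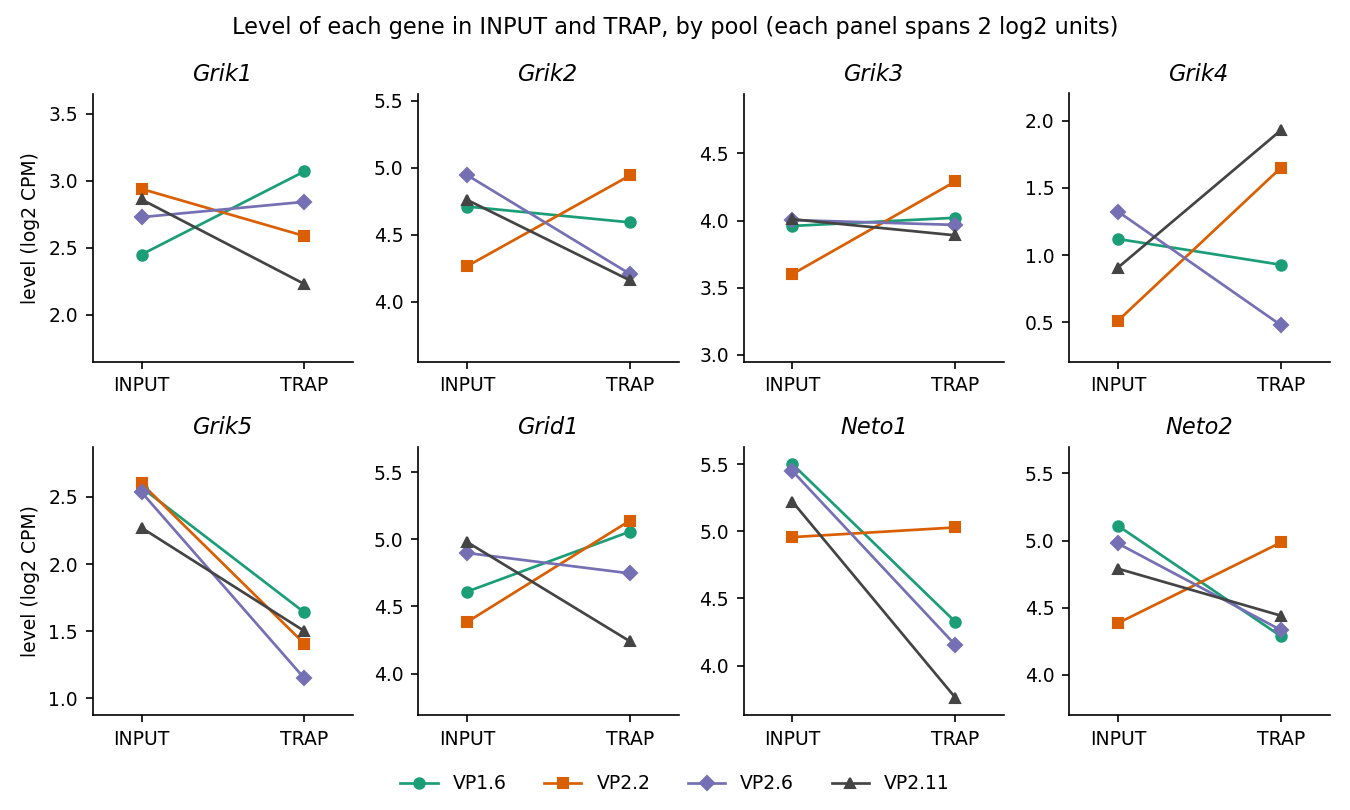
Level (log2 CPM, vertical) of each gene in INPUT and TRAP, with 1 line per pool joining its 2 libraries and panels of equal span. All 4 lines fall for Grik5, and 3 of 4 fall for Grik2, Neto1 and Neto2. The VP2.2 line of these genes goes the other way, by only 0.07 for Neto1. The lines cross for Grik1, Grik3, Grik4 and Grid1.

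Grik1 encodes GluK1, a subunit that forms channels by itself. It stood at 8.39, 6.01, 7.17 and 4.69 CPM in TRAP and at 5.46, 7.67, 6.63 and 7.26 CPM in INPUT, in the pool order used throughout (VP1.6, then VP2.2, then VP2.6, then VP2.11). The libraries of the 2 fractions overlapped, and TRAP was the higher in 2 pools and the lower in 2. The mean was 6.57 ± 1.58 CPM in TRAP and 6.75 ± 0.961 in INPUT (SD, n = 4), a log2 difference of -0.06 (95% interval -0.56 to 0.44, limma adjusted p = 0.839, or 0.908 with the block).

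Grik2 encodes GluK2, the subunit found in most kainate receptors of principal neurons. Its levels were 24.1, 30.7, 18.5 and 17.9 CPM in TRAP and 26.2, 19.2, 30.8 and 27.1 CPM in INPUT. VP2.2 held both the highest TRAP and the lowest INPUT value, and TRAP was the lower in the other 3 pools. Whole reads in VP2.2 numbered 592 in TRAP and 1121 in INPUT (95% exact binomial interval of the log2 difference 0.53 to 0.82, counting error only). Levels computed from these reads were 42.8 and 26.8 CPM, both above the deposited values. Resolved reads of Grik2 were not available in the other pools, so reads cannot tell whether INPUT was lowest in VP2.2. The mean of 22.8 ± 5.98 CPM in TRAP and 25.8 ± 4.83 in INPUT (SD, n = 4) gave a log2 difference of -0.19 (95% interval -0.66 to 0.27, limma adjusted p = 0.469, or 0.616 with the block). The annotated exons of Grik2 together cover the greatest length of the group, 13.25 kb, while its longest transcript is 9.43 kb. Taking out the trend of each library on exon length, measured as that total, moved its difference to -0.68 (limma adjusted p = 0.00574, or 0.0276 with the block). In that fit with the block 3 of the 8 genes, Grik2, Grik5 and Neto1, were lower and none higher, beside 16.3% and 16.0% of all genes. Across all genes tested, the TRAP minus INPUT difference rose with exon length (Spearman rho = 0.412, a description across genes, none of which is an independent replicate).

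Grik3 encodes GluK3, a subunit with low affinity for glutamate that is often presynaptic. Relative to their mean, its levels varied least among those of Grik1 to Grik3, at 16.2, 19.6, 15.6 and 14.8 CPM in TRAP and 15.6, 12.1, 16.0 and 16.1 CPM in INPUT. VP2.2 was again highest in TRAP and lowest in INPUT, while the other 3 pools differed little between fractions, by 0.06, -0.04 and -0.12 in log2 units. The overall log2 difference was 0.15 (95% interval -0.21 to 0.51, limma adjusted p = 0.47, or 0.699 with the block).

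Grik4, the first of the high-affinity subunits, had the lowest mean level per kb of the group in both fractions, though in TRAP it did not differ from Grik5 beyond the spread. Its levels were 1.90, 3.14, 1.39 and 3.81 CPM in TRAP and 2.17, 1.43, 2.50 and 1.88 CPM in INPUT. The TRAP libraries spanned the whole range of the INPUT libraries, with VP2.2 and VP2.11 above them and VP1.6 and VP2.6 below their pool's INPUT. The log2 difference of 0.28 had the widest interval of the 8 genes, -0.55 to 1.11 (limma adjusted p = 0.558, or 0.716 with the block).

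Grik5, which encodes GluK5, the high-affinity partner most often joined to GluK2 in brain, stood at 3.11, 2.65, 2.22 and 2.83 CPM in TRAP. In INPUT it stood at 5.94, 6.06, 5.80 and 4.82 CPM. Every TRAP library lay below every INPUT library, and the difference within pools was -0.93, -1.19, -1.39 and -0.77 in log2 units. Of all genes tested, 24.4% did not overlap in this direction. The means were 2.70 ± 0.377 and 5.66 ± 0.565 CPM (SD, n = 4), a log2 difference of -1.07 (SE 0.22, 95% interval -1.55 to -0.59, limma adjusted p = 0.00264). With the pool as a block the standard error was 0.38, the interval -1.89 to -0.25 and the limma adjusted p 0.0447. The exact two-sided permutation test of 4 against 4 libraries gave p = 0.0286, the smallest it allows. It leaves out the pairing by pool, and every gene without overlap reaches this value. In VP2.6 the difference could be traced to whole reads, 25 in TRAP and 132 in INPUT, with a 95% exact binomial interval of -2.09 to -0.79 for counting error only. The call with the block was lost when any one of VP1.6, VP2.2 or VP2.6 was left out (limma adjusted p = 0.117, 0.101 and 0.183), with log2 differences of -1.12, -1.03 and -0.96, and the call on fraction alone was kept in each of 12 fits that left out a pool or a library.

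Grid1, encoding GluD1, had the highest mean level per kb of the 8 in TRAP, though it did not differ from Neto2 beyond the spread. Its levels were 33.3, 35.2, 26.8 and 18.9 CPM in TRAP and 24.4, 20.9, 29.8 and 31.6 CPM in INPUT. VP1.6 and VP2.2 were higher in TRAP, VP2.6 and VP2.11 higher in INPUT, and the groups overlapped. The log2 difference was 0.08 (95% interval -0.40 to 0.56, limma adjusted p = 0.787, or 0.852 with the block). VP2.6 held 364 TRAP and 804 INPUT reads of this gene, and its difference of -0.15 was within counting error (95% exact binomial interval -0.34 to 0.03).

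Neto1 stood at 20.0, 32.6, 17.8 and 13.5 CPM in TRAP and at 45.3, 31.1, 43.7 and 37.3 CPM in INPUT. TRAP was lower in VP1.6, VP2.6 and VP2.11, by log2 differences of -1.18, -1.30 and -1.46, and VP2.2 differed by 0.07. The TRAP library of VP2.2 was the one that overlapped INPUT. The means were 21.0 ± 8.21 and 39.3 ± 6.50 CPM (SD, n = 4), a log2 difference of -0.96 (SE 0.25, 95% interval -1.52 to -0.41, limma adjusted p = 0.00931). With the block the standard error was 0.28, the interval -1.55 to -0.37 and the limma adjusted p 0.0156. The exact two-sided permutation test, which leaves out the pairing by pool, gave p = 0.0571. In whole reads VP2.2 held 577 and 1661 (TRAP and INPUT, 95% exact binomial interval of the log2 difference -0.07 to 0.21) and VP2.6 held 216 and 1055 (-1.52 to -1.09), so these pools lay further apart than counting error. Leaving out VP1.6 or VP2.6 ended the call on fraction alone (limma adjusted p = 0.0637 and 0.0695), and with the block leaving out VP1.6, VP2.6 or VP2.11 did (0.0678, 0.075 and 0.0712), at log2 differences between -0.89 and -0.80. Without VP2.2 the difference was -1.31 (limma adjusted p = 0.00121, or 0.00159 with the block). Of the exon bases of Neto1, 2.62% are overlapped by another gene annotated on the opposite strand, and the sources used here do not give the strand setting of the counts.

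Neto2, the other auxiliary subunit, stood at 19.5, 31.7, 20.2 and 21.7 CPM in TRAP and at 34.5, 20.9, 31.5 and 27.7 CPM in INPUT. As for Neto1, TRAP was below INPUT in 3 pools, but VP2.2 went clearly the other way, with a difference of 0.60. Whole reads for Neto2 numbered 587 and 1171 in VP2.2 (95% exact binomial interval 0.45 to 0.74) and 245 and 762 in VP2.6 (-0.86 to -0.44), so in both pools the opposite differences exceeded counting error. The log2 difference over the 4 pools was -0.30 (95% interval -0.76 to 0.15, limma adjusted p = 0.245, or 0.414 with the block).

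**Figure D2:**
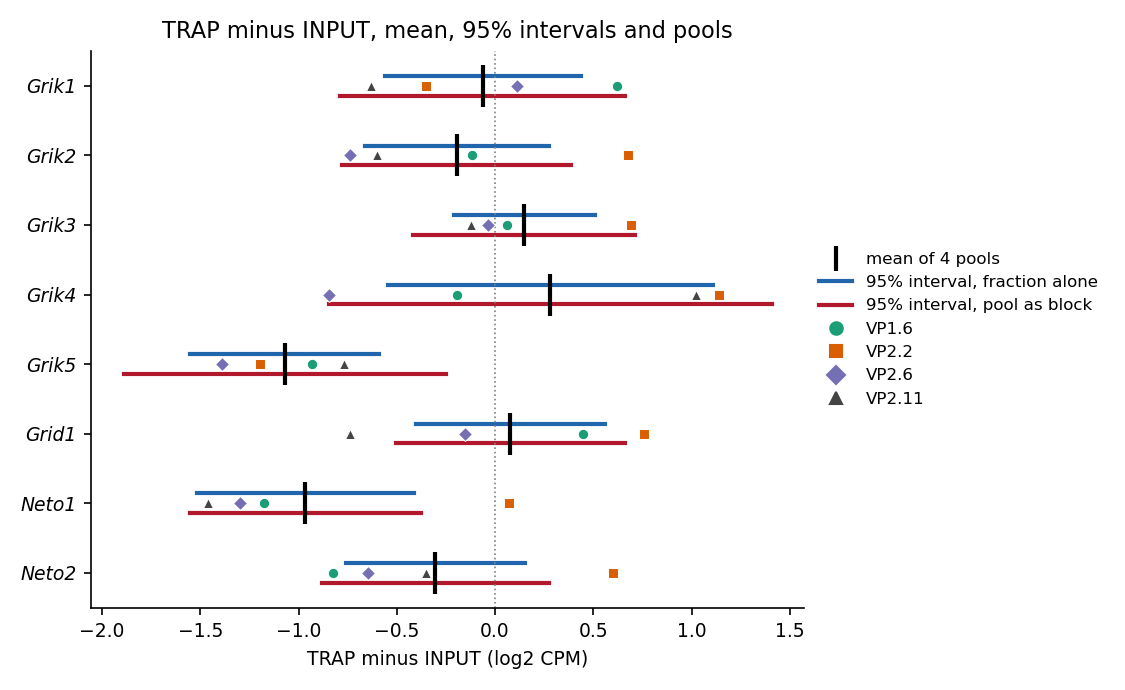
TRAP minus INPUT (log2 CPM, horizontal) of the 8 genes, with the mean of 4 pools (black tick), its 95% interval on fraction alone (blue) and with the pool as a block (red), and each pool as a point. The intervals of Grik5 and Neto1 lie below 0, and the VP2.2 point of Neto1, at 0.07, lies outside both.

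Pool VP2.2 stood apart from the others for these genes. In it 6 of the 8 were higher in TRAP, with a median log2 difference of 0.64, against 3 of 8 in VP1.6, 1 of 8 in VP2.6 and 1 of 8 in VP2.11, where the medians were -0.15, -0.69 and -0.61. Over all genes between 48.2% and 49.5% were higher in TRAP in each pool. For Grik2, Neto1 and Neto2, VP2.2 alone differed in sign from the other 3 pools, which held for 11.0% of all genes. For Neto1 the difference in VP2.2 was 0.07, within counting error. No other pool was alone in this way for any of the 8 (VP1.6, VP2.6 and VP2.11 were for 6.66%, 5.79% and 11.4% of all genes). The summed GABAergic markers were also higher in TRAP in VP2.2, by 1.43 in log2 units, against -0.60, -0.18 and -0.22 in VP1.6, VP2.6 and VP2.11. The summed cholinergic markers showed 1.80 in VP2.2 and 0.24, 0.41 and 0.06 in the others, and the sums for oligodendrocyte precursors 1.03 against -0.52, 0.12 and 0.33. The shift was not limited to these lists. VP2.2 also held the highest value of the 4 pools for the summed vGluT2 neuron (2.98) and pan-neuronal markers (2.12). It did so too for medium spiny neuron (-1.18), astrocyte (-0.62) and oligodendrocyte markers (-1.22), but not for microglial (-1.94) or endothelial ones (-0.06). Within the GABAergic, cholinergic and precursor lists the genes did not move together. In VP2.2 Slc32a1 stood at -0.60 beside 1.29 and 1.66 for the other GABAergic markers. Slc18a3 stood at -0.0017 beside 1.62 and 2.48 for the other cholinergic ones, and Gpr17 at -0.67 beside 1.53 and 3.08 for the other precursor ones. The part of any of these cell types in the levels of the 8 genes was not tested.

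Without VP2.2, 4 of the 8 genes passed as lower in TRAP on fraction alone, beside 21.6% of all genes. These were Grik2 (log2 difference -0.48, limma adjusted p = 0.0424), Grik5 (-1.03, 0.0159), Neto1 (-1.31, 0.00121) and Neto2 (-0.61, 0.0097). With the pool as a block and without VP2.2, Neto1 passed (0.00159), and Grik2 (0.146), Grik5 (0.101) and Neto2 (0.0656) did not, beside 14.3% of all genes called lower. This set of 4 rests on leaving out the pool that differed from the others.

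**Figure D3:**
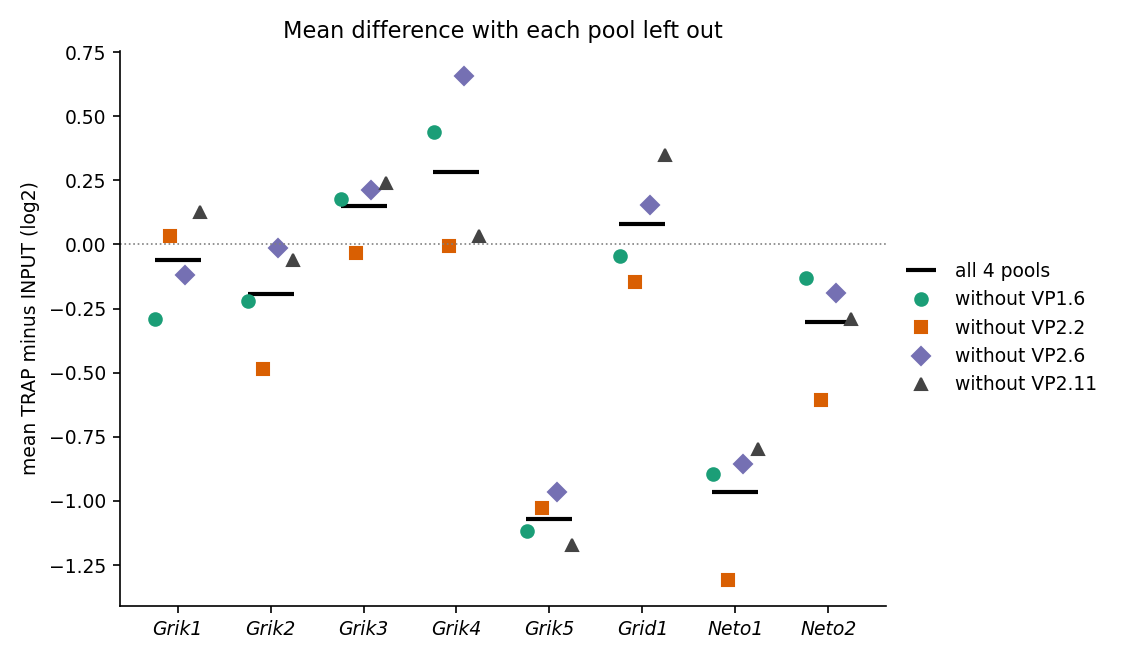
Mean TRAP minus INPUT (log2, vertical) of each gene over all 4 pools (black bar) and with each pool left out (coloured points). Leaving out VP2.2 gave the lowest value of the 4 for Grik2, Grik3, Grik4, Grid1, Neto1 and Neto2, while Grik5 stayed between -1.17 and -0.96.

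Levels of different genes were compared per kb of exon, as CPM per kb. The order rests on deposited levels, whose shift from levels computed from reads differed between genes. In TRAP the order was Grid1 (4.79 ± 1.24), Neto2 (3.80 ± 0.927), Neto1 (2.51 ± 0.983), Grik3 (1.85 ± 0.233), Grik2 (1.72 ± 0.452), Grik1 (0.977 ± 0.236), Grik5 (0.523 ± 0.0729) and Grik4 (0.43 ± 0.186; SD, n = 4 for each). Of the neighbours in this order, Neto2 and Neto1, Grik2 and Grik1, and Grik1 and Grik5 differed by more than the SD of their difference and in the same direction in all 4 libraries. Grid1 and Neto2, Neto1 and Grik3, Grik3 and Grik2, and Grik5 and Grik4 did not. INPUT began with Neto1 (4.71 ± 0.778), Neto2 (4.67 ± 0.961) and Grid1 (4.47 ± 0.825), which did not differ beyond their spread. After a step of 1.20 in log2 units came Grik2 (1.95 ± 0.364), Grik3 (1.67 ± 0.212), Grik5 (1.09 ± 0.109), Grik1 (1.01 ± 0.143) and Grik4 (0.335 ± 0.0769). With the length of the longest transcript in place of all exons, Grik2 stood above Grik3 in TRAP and the other places were the same, but the TRAP level of Grik1 was 1.80 CPM per kb.

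**Figure D4:**
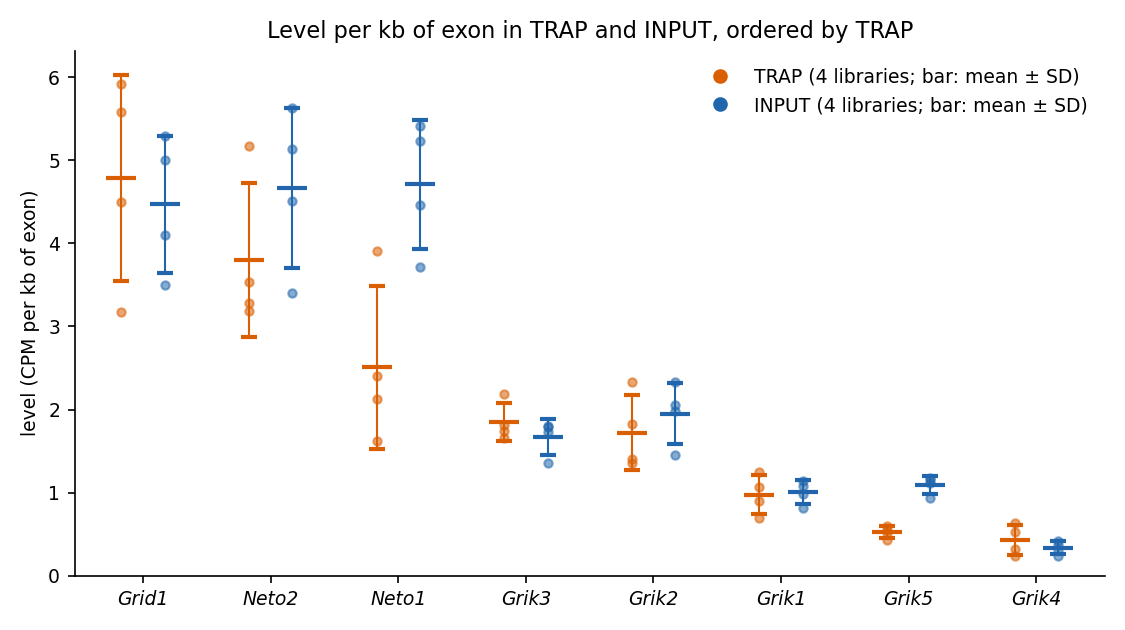
Level (CPM per kb of exon, vertical) of each gene in the 4 TRAP (orange) and 4 INPUT (blue) libraries, with the mean ± SD, ordered by the TRAP mean. Neto1 and Grik5 are the genes with TRAP means far below INPUT, 2.51 against 4.71 and 0.523 against 1.09.

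Seen as a mixture, the summed level per kb of the 5 kainate receptor genes was made up mostly of the subunits that form channels alone. Grik1, Grik2 and Grik3 together held 82.5 ± 4.68% of it in TRAP and 76.3 ± 2.66% in INPUT (SD, n = 4). The share of Grik5 was 10.4, 7.97, 8.81 and 11.2% in TRAP and 19.0, 21.9, 16.9 and 15.1% in INPUT, without overlap. Grik3 held 33.7 ± 1.90% in TRAP and 27.5 ± 1.78% in INPUT, also without overlap, and Grik2 held 30.9 ± 3.76% and 32.0 ± 3.41%. Between the high-affinity subunits, the ratio of Grik5 to Grik4 per kb was between 0.856 and 1.89 in TRAP and between 2.67 and 4.91 in INPUT. The ratio of Neto1 to Neto2 per kb was 0.753, 0.756, 0.648 and 0.458 in TRAP against 0.962, 1.09, 1.02 and 0.989 in INPUT. This ratio was lower in TRAP in every pool, VP2.2 included, although neither gene alone was lower in TRAP there. These shares and ratios rest on the union of exons and were not tested, and a ratio does not say which of its genes differs. The level of Grik3 itself was higher in TRAP in only 2 of 4 pools. Shares also rest on deposited levels, whose shift from levels computed from reads differed between genes (in VP2.2, -0.48 for Grik2 and -0.89 for Grik4). Since a pool's libraries mirror each other, lack of overlap may add little to agreement in sign over 4 pools.

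The spread between libraries needs care in this table. Every one of the 3471 genes that were lower in TRAP in all 4 pools had libraries without overlap between the fractions, and so did every one of the 3320 genes that were higher in all 4. The mean of the 2 libraries of a pool varied little between pools (median SD over genes 0.125 in log2 units), and the difference divided by 2 varied more (0.285). For the 8 genes these SDs were 0.0231 to 0.221 and 0.137 to 0.482. A high TRAP library therefore went with a low INPUT library of the same pool, and the SDs within a fraction follow mostly from the TRAP minus INPUT differences. The sources used here do not say how this arose, nor whether a term for the pool was taken out before deposit. The lack of overlap of Grik5 holds no more than its agreement in sign over 4 pools, and a test that changes signs within pools could not give a two-sided p below 0.125.

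Among other ionotropic glutamate receptor subunits, several were higher in TRAP. Of 11 such genes 9 were tested, all but Grin2c and Grin3b, and 5 were higher and none lower, on fraction alone, where 23.2% of all genes were higher, and with the block, where 15.4% were. The pan-neuronal markers were higher as well, by log2 differences of 0.55 to 1.93 for single genes and of 0.85 to 2.12 for their sum in the 4 pools, and the part of neurons as a whole in the levels of the receptor genes was not tested. The median log2 difference was 0.91 for these 9, -0.13 for the 8 genes described here and -0.05 for all genes tested. The 5 were the AMPA receptor subunits Gria2 (540 ± 38.4 against 292 ± 68.5 CPM), Gria3 (150 ± 20.3 against 57.5 ± 19.6) and Gria4 (28.8 ± 7.65 against 15.9 ± 5.57) and the NMDA receptor subunits Grin1 (20.8 ± 15.3 against 5.54 ± 0.796) and Grin2b (269 ± 38.7 against 101 ± 38.3; SD, n = 4 for each). Their log2 differences were 0.92, 1.45, 0.91, 1.69 and 1.51, each higher in 4 of 4 pools, with limma adjusted p of 0.00925, 0.000956, 0.0443, 0.00203 and 0.0013 with the block. With the exon length trend also taken out, 3 of the 9 were higher and none lower, beside 16.0% of all genes. Grin2a had a log2 difference of -0.81 (limma adjusted p = 0.28, or 0.447 with the block), Grin3a 0.35 (0.177 and 0.331), Grin2d -0.14 (0.682 and 0.822) and Gria1 0.07 (0.714 and 0.831).

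Of 19 genes for proteins that bind, edit or modify kainate or delta receptors, 17 were tested, all but C1ql2 and Klhl17. On fraction alone 9 were higher and 2 lower, beside 23.2% and 24.8% of all genes, and with the block 6 and 2, beside 15.4% and 16.8%. With the exon length trend also taken out there were 6 and 3, beside 16.0% and 16.3%. The median log2 difference was 0.52. Higher with the block were the secreted C1q-like protein gene C1ql3 (log2 difference 1.36), the cerebellin gene Cbln2 (1.08), the neurexin gene Nrxn3 (1.28), the adhesion gene Cdh2 (0.93) and the scaffold genes Grip1 (1.43) and Grip2 (0.89), with limma adjusted p between 0.00122 and 0.0341. Lower were another cerebellin gene, Cbln4 (-1.24), and the postsynaptic scaffold gene Dlg4 (-1.06), with limma adjusted p of 0.0196 and 0.00347 with the block. Among those that did not pass with the block, the largest differences were those of the delta receptor ligand gene Cbln1 (0.76, limma adjusted p = 0.0405 on fraction alone and 0.116 with the block), the RNA-editing enzyme gene Adarb1 (0.65, 0.0206 and 0.0566), C1ql1 (-0.61, 0.189 and 0.501) and Nrxn2 (0.52, 0.192 and 0.254).

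**Figure D5:**
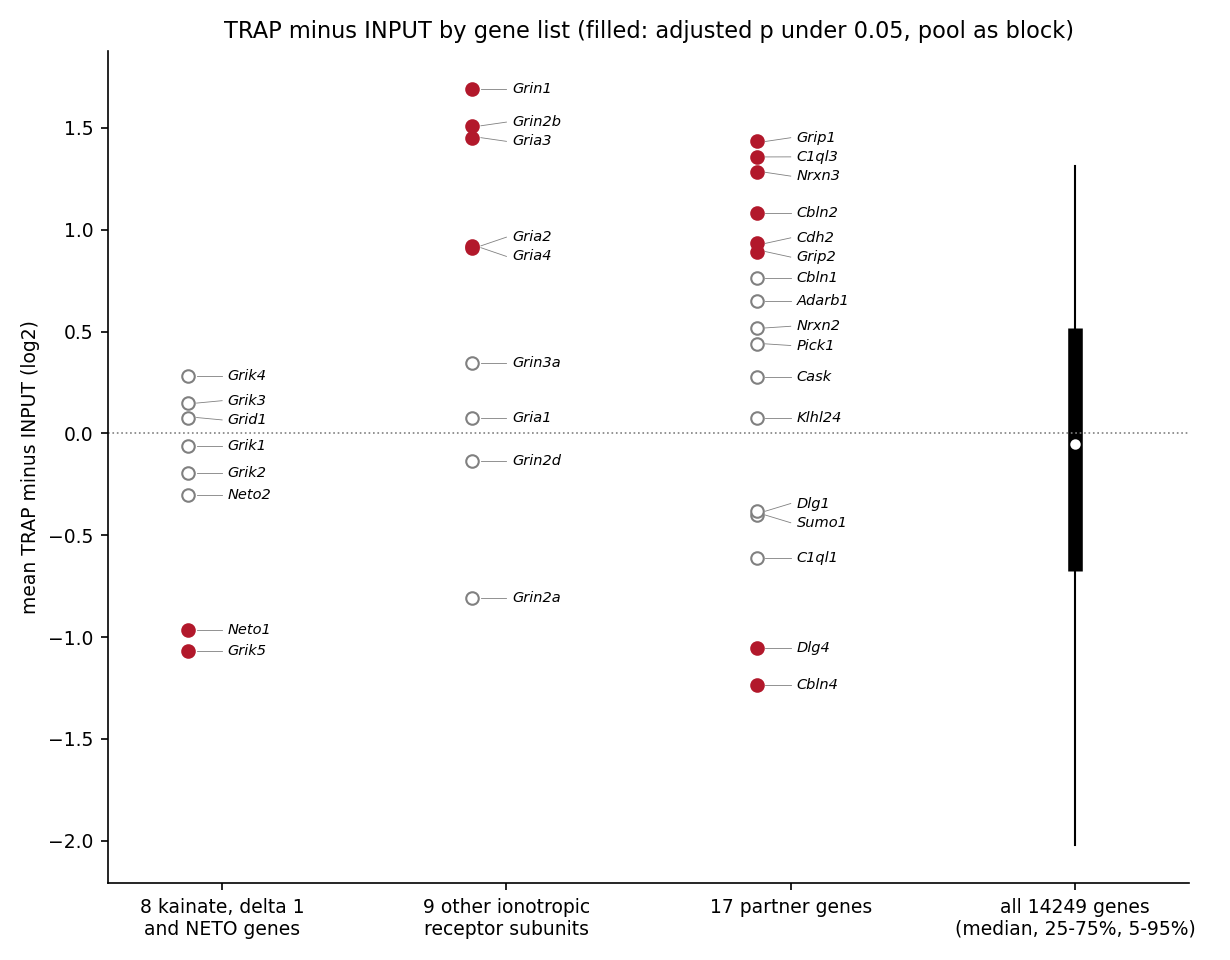
Mean TRAP minus INPUT (log2, vertical) of the 8 genes, of 9 other ionotropic glutamate receptor subunits and of 17 partner genes, filled where limma with the pool as a block passed, beside the median and the ranges of all 14249 genes tested. The medians of the lists are -0.13, 0.91 and 0.52, and -0.05 for all genes.

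The genes whose log2 levels ran closest to each of the 8 over the 8 libraries lay outside the glutamate receptor families. Likeness was measured by Pearson r, which includes both the fraction and the pool. Neto1 ran with Aqp4, the astrocyte water channel gene, and with Pmepa1 and Nadk (r = 0.999 for each). Aqp4 was lower in TRAP by log2 differences of -1.26, -0.00, -1.47 and -1.66 in the 4 pools, beside -1.18, 0.07, -1.30 and -1.46 for Neto1, and the part of astrocytes in the Neto1 level was not tested. The summed astrocyte markers differed by -1.74, -0.62, -1.49 and -1.20. In VP2.2 the other astrocyte markers stood at -0.10 (Aldh1l1), -0.33 (Slc1a3), -0.90 (Gfap) and -1.56 (Gja1), and Aldh1l1 stood at 0.25 in VP2.6. Grik5 ran with Timm10b (r = 0.998), Amz1 and Pmp22 (0.997 each), Grik3 with Pdpr (0.999), Mtx3 (0.998) and St6galnac5 (0.997), and Grik2 with Pdzd8 (0.99), Mal2 and Casc4 (0.989 each). For Grik1 these were Ephx1 (0.995), Kcng1 (0.992) and Ifngr1 (0.99), for Grik4 Greb1l (0.995), Ahsa2 (0.99) and Rcbtb2 (0.989), for Grid1 Grk3 (0.994), Ptcd2 and Mau2 (0.993 each) and for Neto2 Rragc, Aebp2 (0.993 each) and Rap2c (0.991). Among the 8 genes, Neto1 and Neto2 (r = 0.807), Grik2 and Neto2 (0.804), Grid1 and Grik3 (0.774) and Grik5 and Neto1 (0.768) were the most alike, and Grik1 and Grik4 ran most against each other (-0.78). These values come from 8 libraries of 4 pools and from the closest of 14249 genes, so they are a description.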

How the data were processed

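RNA of TRAP and INPUT fractions was sequenced by the study, aligned with STAR 2.5.1a to the Ensembl mouse assembly (GRCm38) and counted per gene with featureCounts, taking unique reads. The deposited values are given as log2 CPM per library, and the authors describe scaling with TMM size factors in edgeR before limma. Where whole reads were resolved, deposited levels differed from those computed from reads by an amount that varied by gene. It ran from -0.89 (Grik4, VP2.2) to 0.17 (Grik5, VP2.6) in log2 units and was the same in both libraries of a pool. The deposited levels are therefore not plain counts over depth. Columns of the authors' own comparisons (fold changes and p-values) were not used. Of 14398 entries, 45 repeats were dropped, and 14249 of 14353 genes were over 1 CPM in at least 3 libraries. Both libraries of VP2.11 and INPUT of VP1.6 are rounded to 3 significant digits.

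TRAP and INPUT were compared with limma 3.58.1 (R 4.3.3, eBayes with trend) on fraction alone, with Benjamini-Hochberg adjustment over all genes tested and a threshold of 0.05. The libraries of a pool come from the same mice, so the pool number pairs them. Their deviations from the fraction means correlated at -0.745, -0.661, -0.743 and -0.495 (VP1.6, VP2.2, VP2.6, VP2.11) against 0.0457 to 0.441 between pools, so a second fit, blocked on pool, stands beside each result. Since that correlation is negative, the fit on fraction alone can understate the error of a difference. Alternatives were other filters, an added 1 CPM before the log, no trend, array weights, median centring, removal of an exon length trend, a minimum fold and leaving out pools or libraries. Scripts were tested on simulated data. Exon length is the union of annotated exons (GENCODE M21).

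The table gives no totals. In VP2.2 and VP2.6 differences of genes below 16 CPM fell on whole-read ratios for 99.6% and 99.7% of genes, which gave effective libraries of 13.9 M and 41.9 M reads (TRAP and INPUT) and of 13.0 M and 25.8 M. Reads are printed for the 8 of 16 gene and pool pairs where the smallest whole-read pair matched, since a larger multiple cannot be told apart otherwise. Intervals on reads cover counting error only. Depth in VP1.6 and VP2.11 is unknown, and no count test was run.

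The 8 genes and the lists of other subunits, partners and cell type markers were chosen with earlier results of these data known. A few genes of the lists are not reported here. All 8 are named. Of the lists, the genes called with the block and up to 4 others with the largest differences are named, and for likeness the 3 genes with the highest r.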

Additional observations from a re-analysis of the deposited data

Results flagged for a closer look

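One of 16 groups of 4 libraries held a library far from the others by Dixon's test, where chance gives about 0.8. Grik3 in INPUT of VP2.2 stood at 3.60 log2 CPM, against 3.96 to 4.01 in the other 3 INPUT libraries. The TRAP library of the same pool was the highest of its fraction, at 4.29. Since the levels of a pool's libraries mirror each other in this table, the low INPUT and the high TRAP library are not separate observations, and for the VP2.2 genes whose whole reads were resolved the deposited levels lay below those computed from reads.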

How the results depend on the processing

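Of 88 results for single genes under settings that kept all libraries, 75 kept their direction and side of the threshold. Array weights gave 0.16 for Grik1 and -0.28 for Grik4 (0.14 and -0.17 with the replicate block) and -0.54 for Neto2, past the threshold (limma adjusted p = 0.00804). With the exon length trend taken out, with or without the block, Grik3 was at -0.18, Grid1 at -0.079 and Grik2 at -0.68, past the threshold, and Neto2 was at -0.47 (limma adjusted p = 0.045 without the block). Requiring an absolute log2 difference of 1 took away the call of Neto1 (-0.96) and left 3528 of 6830 genes. The replicate block gave 4592 genes and array weights 8645. The block changed no call among the 8 genes, and of the partner genes it ended the calls of Cbln1, Pick1 and Adarb1. Centring on the median moved the split of higher and lower genes from 3300 and 3530 to 3466 and 3253.

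Leaving out a pool or a library gave between -0.29 and 0.13 for Grik1, -0.48 and -0.014 for Grik2, -0.032 and 0.24 for Grik3, and -0.0052 and 0.66 for Grik4. The ranges were -1.17 to -0.96 for Grik5, -0.15 to 0.35 for Grid1, -1.31 to -0.78 for Neto1 and -0.61 to -0.13 for Neto2. Counts of genes ranged from 4862 to 7167 on fraction alone and from 3232 to 4156 with the block. Per kb of the longest transcript, TRAP levels were 1.80 (Grik1), 2.42 (Grik2) and 0.665 (Grik5) CPM. The cause of these shifts was not tested. Depth is unknown in VP1.6 and VP2.11, and Grik5 rested on 25 TRAP reads in VP2.6.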

Other observations

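The whole reads found in VP2.2 and VP2.6 also gave levels that can be set beside the deposited ones. In VP2.2 the deposited log2 levels minus the levels computed from reads were -0.48 for Grik2, -0.89 for Grik4, -0.35 for Neto1 and -0.42 for Neto2. In VP2.6 they were 0.17 for Grik5, -0.07 for Grid1, 0.09 for Neto1 and 0.09 for Neto2. Grik4 in VP2.2 thus stood on 80 TRAP and 110 INPUT reads, or 5.81 and 2.64 CPM, where the deposited values give 3.14 and 1.43 CPM. The difference between the fractions is the same in both, 1.14 in log2 units (95% exact binomial interval 0.70 to 1.57, counting error only).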
